A study of Mus musculus with 8 samples.

Results

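The resting state of RAW264.7 cells was described from the 2 untreated libraries of a series of 8, taken by their labels alone, over every gene of the deposited expression table, 10639 in all. RAW264.7 is a macrophage-like cell line that was established from a tumour induced in a male BALB/c mouse by Abelson murine leukaemia virus. The series held 4 groups of 2 libraries each, and the other groups were cells given lipopolysaccharide, antibodies against CD36 or both. Those 6 libraries were not compared with the untreated ones. The labels give the untreated cells the genotype WT and the treatment "untreat", and name no culture time for them. Nothing in the labels says that the 2 libraries came from separate cultures, so the spread between them may be technical.

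Macrophages are phagocytes of the myeloid lineage. Their identity is set largely by the transcription factor PU.1, encoded by Spi1, and their survival depends on signals through the colony stimulating factor 1 receptor, encoded by Csf1r. They take up particles through Fc, scavenger and lectin receptors, break them down in acid lysosomes rich in proteases and glycosidases, and sense microbes through Toll-like receptors. A permanent line adds to this the machinery of continuous growth and division.

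Levels are in FPKM, fragments per kilobase of transcript scaled to the reads of the library, a measure that corrects for gene length and so allows genes to be ranked against each other within a library. Reads recovered from the values gave a depth of 55700000 and 71700000 for replicates 1 and 2, at which 3 reads in a gene of 2000 bp equal 0.0269 and 0.0209 FPKM. This floor covers counting error only. In RNA from a whole culture, fewer cells that use a gene and less RNA per cell cannot be told apart. The 2 libraries ranked the genes alike, with a Pearson r of 0.991 on log2(FPKM + 1) and a Spearman rho of 0.989 across 9937 genes with a mean of at least 1 FPKM, which are not independent replicates.

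The labelled cell type was checked against marker genes. Of 11 macrophage markers, 10 had a row in the table, all at 1 FPKM or more, 9 at 10 or more and 6 at 100 or more. Over all genes these shares were 93.4%, 45.4% and 3.92%. The markers summed to 4705 FPKM in replicate 1 and 4045 in replicate 2, of which Lyz2 gave 2729 and 2177. The remaining marker, Mertk, was not analysed here. Of 10 fibroblast and 8 epithelial markers, 0 had a row. Only 2 of 25 T and NK cell markers (Lck and Cd5), 2 of 23 granulocyte and mast cell markers (Csf3r and Lcn2), 1 of 13 erythroid and platelet markers (Epor) and 1 of 8 endothelial markers (Eng) had one, and these lists summed to between 1.32 and 4.42 FPKM in either library. Dendritic cell markers had 4 rows of 13, summing to 17.4 and 18.0 FPKM, most of it Cd83, an activation marker. The markers of resident tissue macrophages had 1 row of 16, the F4/80 gene Adgre1. The rows thus carried the macrophage markers of the label, and markers without a row were not analysed here.

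The B lineage list was the one list of another cell type with a high member. It had 4 rows of 17, with summed levels of 110 and 109 FPKM. Ighm, the immunoglobulin mu heavy chain gene, stood at 87.4 and 84.6 FPKM, rank 512. Its neighbour Ighj1, a joining segment, stood at 56.9 and 47.4 FPKM and Ighd, the delta chain gene, at 0.879 and 1.40. Blnk, an adaptor of B cells that macrophages also use, stood at 21.8 and 22.4 FPKM, while Cd79b, a signalling chain of the B cell receptor, stood at 0.0753 and 0.107, from 6 and 11 reads. Ighm was thus at percentile 95.2 of all genes beside a Cd79b near the floor, and the other defining B lineage genes, among them Cd79a, Pax5 and Ebf1, were not analysed here.

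The levels of the 10639 genes spanned from 0.0308 FPKM for Lix1 to 7921 for the mitochondrial gene COX1. The median gene stood at 8.51 FPKM in replicate 1 and 8.64 in replicate 2, and the middle 50% of genes lay between 3.49 and 20.0. At or above 1 FPKM were 9937 genes (93.4%), at or above 10 were 4834 (45.4%), at or above 100 were 417 (3.92%) and at or above 1000 were 26 (0.244%). These counts depend on the scale: with each library's table set to sum to 1000000, 8400 genes were at or above 10 and 1825 at or above 100, while the order within a library is the same by construction. All 10639 genes were above 0 in all 8 libraries of the series, so the table is not a census of the genome and genes silent in any library were not analysed here. The summed FPKM was held by few genes. The 10 most abundant genes held 10.3% ± 1.09 of the summed FPKM (SD, n = 2), the 100 most abundant 30.7% ± 0.196 and the 1000 most abundant 63.2% ± 1.01, while 435 genes sufficed for 50% of it and 4450 for 90%. Above 1 FPKM, abundant genes were shorter: the median exon length was 1648 bp at 1000 FPKM or more, 2613.5 bp from 100 to 1000, 3990 bp from 10 to 100 and 5128 bp from 1 to 10. Below 1 FPKM it was 2940.5 bp, so the order did not extend to the lowest genes.

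**Figure D1:**
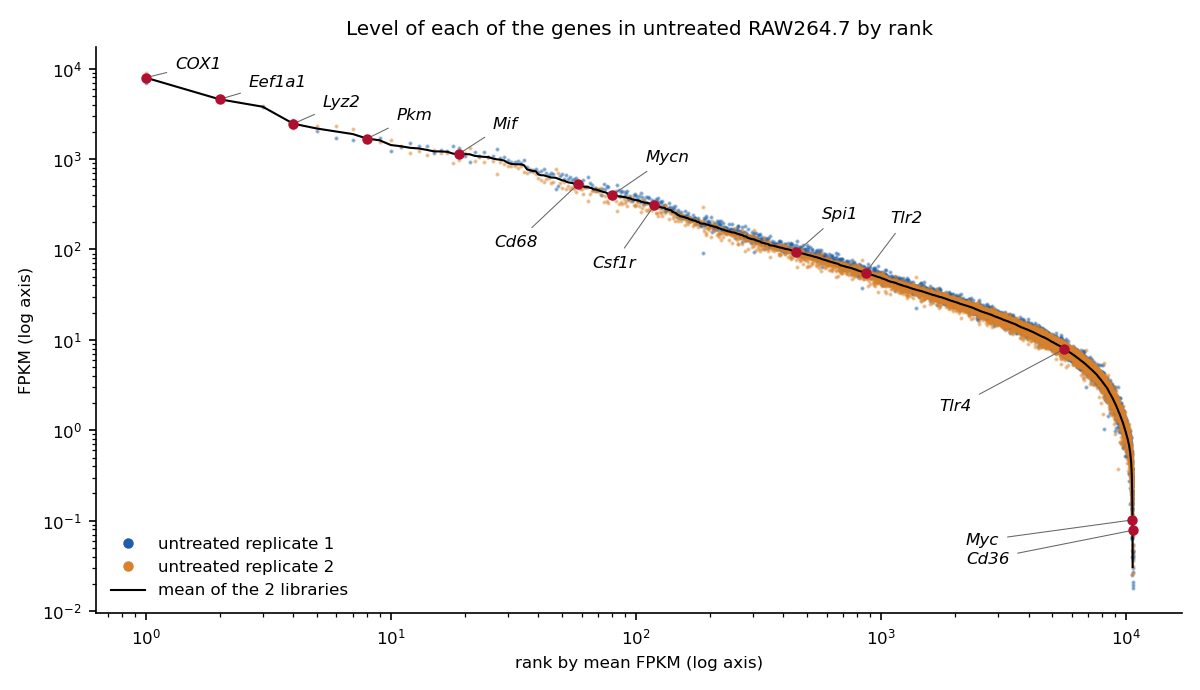
FPKM of each gene in the 2 untreated libraries (points, log axis) against its rank by mean FPKM (log axis), with the mean as a line and 13 genes of the text marked. Levels fall from 7921 FPKM for COX1 through 308 for Csf1r and 7.93 for Tlr4 to 0.0783 for Cd36, and the steep end holds the 702 genes under 1 FPKM.

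By class, the 13 mitochondrially encoded genes held 4.70% of the summed FPKM in replicate 1 and 6.62% in replicate 2. The 83 ribosomal protein genes held 9.51% and 7.68%. Rows annotated as pseudogenes, 259 in number, held 4.23% and 3.92%. The third most abundant row was a pseudogene, Gm13394, at 3735 and 3830 FPKM. Reads from near-identical parent genes can fall on such rows, because the counting rule was not given in the sources used here, so the levels of parents and copies are both uncertain.

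Outside these classes the most abundant gene was Eef1a1, the elongation factor that brings aminoacyl-tRNA to the ribosome, at 4682 and 4456 FPKM. Lyz2, the lysozyme of macrophages, followed at 2729 and 2177. Ptma, which encodes the small nuclear protein prothymosin alpha, stood at 2036 and 2301. These were followed by the pyruvate kinase gene Pkm (1701 and 1657), the elongation factor gene Eef2 (1696 and 1522), the chaperone gene Hsp90ab1 (1357 and 1407) and the lactate dehydrogenase gene Ldha (1379 and 1233). Eef1a1 stood apart from the next gene in both libraries, and Ptma from Pkm. Of the 29 neighbouring pairs among the 30 most abundant such genes, 24 overlapped in their ranges over the libraries, so most of the order within the group is not resolved.

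Among the same 30 genes, translation was represented by Eef1a1, Eef2, Eif5a (743 and 578 FPKM), Tpt1 (697 and 599) and Fau (621 and 433), the last encoding a ribosomal protein fused to a ubiquitin-like one. Glycolysis was represented by Pkm, Ldha, Pgk1, Aldoa, Pgam1, Eno1 and Tpi1, which are described with their pathway below. Macrophage products in the group were Lyz2, Cst3, an inhibitor of cathepsins (978 and 721), Cd68, a lysosomal glycoprotein (502 and 550), Spp1, the secreted matrix protein osteopontin (1090 and 1172), and Mif, a cytokine and tautomerase (1314 and 971). Fth1, the ferritin heavy chain that stores iron, stood at 1255 and 1167 and B2m, the light chain of class I major histocompatibility molecules, at 1223 and 1177. Car2, a cytosolic carbonic anhydrase, stood at 920 and 842 FPKM, rank 31. Ifitm3, an interferon-induced membrane protein that restricts viral entry, stood at 632 and 461.

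Among 25 lineage transcription factors with a row of 35 listed, 24 reached 1 FPKM, 10 reached 10 and 0 reached 100, and their median of 7.70 FPKM lay at percentile 46.7 of all genes. The counts at 1 and 10 FPKM were thus near the shares over all genes, 93.4% and 45.4%. Spi1 stood highest at 94.5 and 92.6 FPKM, rank 452, more than 3 times the next factor. That was Etv5, another factor of the ETS family, at 26.1 and 28.4. Cebpb, a factor of the inflammatory response, followed at 24.2 and 23.5, then Fli1 (16.7 and 20.7) and Bhlhe40 (17.6 and 19.4). Irf8, the interferon regulatory factor needed for monocyte development, stood at 18.1 and 16.9. The ranges of Spi1, Etv5, Cebpb and Fli1 did not overlap in that order.

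The myeloid partner Cebpa stood at 11.7 and 9.26 FPKM, below Cebpb in both libraries, and Cebpe, which acts in granulocyte maturation, at 3.33 and 3.38. Of the factors of lysosome synthesis, Tfe3 stood at 14.5 and 15.2, Mitf at 7.06 and 8.50 and Tfeb at 5.38 and 4.71. Runx1, which acts with PU.1 at myeloid enhancers, stood at 5.37 and 6.45. The haematopoietic stem cell factor Tal1 stood at 8.93 and 7.75, above the macrophage factors Klf4 (2.22 and 2.52) and Nr1h3, the liver X receptor alpha (1.52 and 1.15). Maf, Gata6, Spic, Tfec, Batf3, Gfi1b, Myb, Gata1, Gata2 and Sall1 were not analysed here.

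Csf1r, the receptor for macrophage growth factor, stood at 311 and 306 FPKM, rank 119. It was the 1 of 21 genes with a row to reach 100 in the list of growth factor and cytokine receptors with ligands. Its ligand gene Csf1 stood at 0.129 and 0.148 FPKM, rank 10610. The receptor was therefore abundant while its own ligand lay near the bottom of the table. Tgfbr2, the type II receptor for transforming growth factor beta, came next at 29.8 and 29.7, while its partner Tgfbr1 stood at 2.21 and 2.53. Tnfrsf1a, the main receptor for tumour necrosis factor, stood at 27.0 and 24.1, and Il10ra, a chain of the interleukin 10 receptor, at 22.6 and 22.1.

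Both chains of the interferon gamma receptor stood close together, Ifngr1 at 21.3 and 21.1 FPKM and Ifngr2 at 20.1 and 22.2, and those of the type I interferon receptor lower, Ifnar1 at 11.8 and 13.1 and Ifnar2 at 6.24 and 6.49. Csf2ra, the chain that binds granulocyte-macrophage colony stimulating factor, stood at 15.3 and 14.6, above its signalling chain Csf2rb at 7.20 and 8.16. Csf3r, the granulocyte colony stimulating factor receptor, stood at 4.01 and 4.33. Il4ra, which carries the signal of interleukins 4 and 13, was at 1.05 and 0.911. Flt3, Kit, Il3ra, Il10rb, Il1r1 and Il34 were not analysed here.

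**Figure D2:**
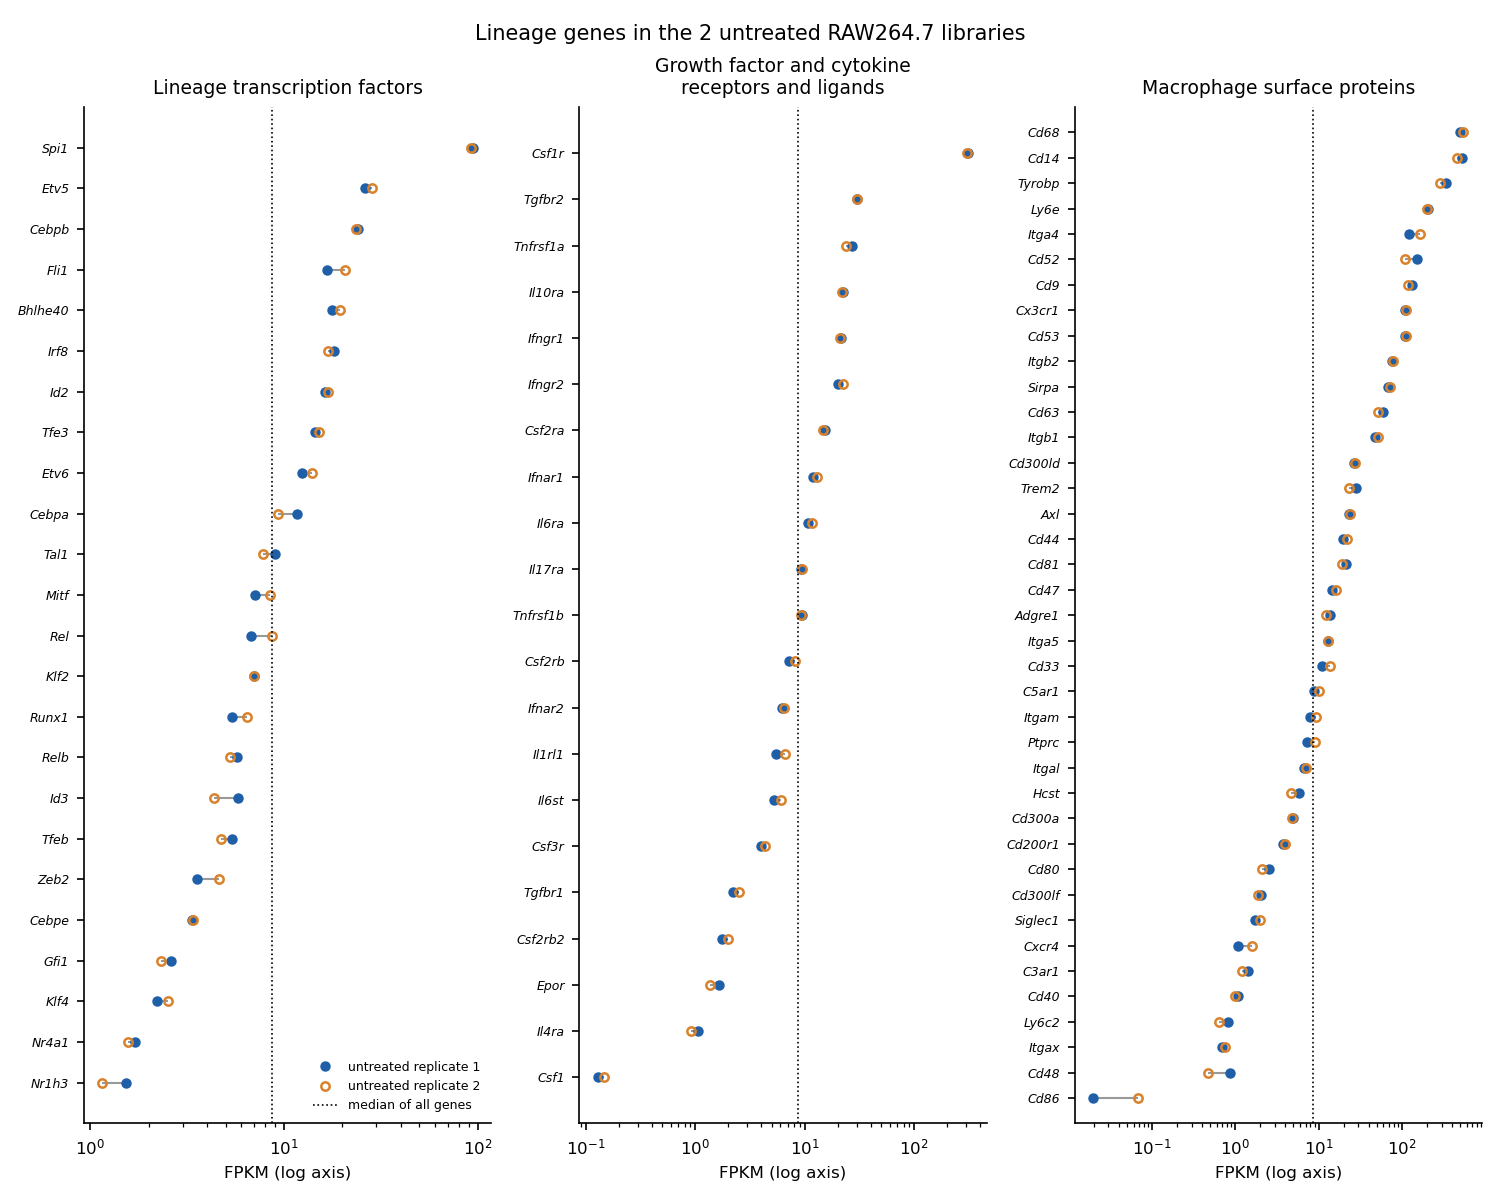
FPKM (log axis) of 24 of the 25 lineage transcription factors with a row, growth factor and cytokine receptors with ligands, and macrophage surface proteins in untreated replicate 1 (filled) and replicate 2 (open), joined by a line, with the median of all genes dotted. Spi1, Csf1r and Cd68 lead their panels at 93.6, 308 and 526 FPKM, and Nr1h3, Csf1 and Cd86 end them at 1.34, 0.139 and 0.0441.

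Of 39 macrophage surface genes with a row, 35 reached 1 FPKM, 22 reached 10 and 9 reached 100. Over all genes these shares were 93.4%, 45.4% and 3.92%. Cd68 led at 502 and 550 FPKM, followed by Cd14, the co-receptor for lipopolysaccharide, at 534 and 460. Tyrobp, the signalling adaptor DAP12, stood at 335 and 284. Cx3cr1, the receptor for fractalkine, stood at 108 and 113, and Itga4, the alpha 4 integrin chain, at 122 and 165. These levels lie in the top 3.92% of the table. Sirpa, the receptor for the "don't eat me" protein CD47, stood at 68.4 and 72.7, Trem2, a lipid receptor that signals through Tyrobp, at 28.3 and 23.4, and Axl, a receptor of apoptotic cells, at 23.3 and 23.8.

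The classical surface antigens were lower. Adgre1 stood at 13.8 and 12.2 FPKM. The beta 2 integrin chain Itgb2 stood at 77.0 and 78.1, but its alpha partners Itgam (CD11b) stood at 7.83 and 9.44, Itgal at 6.74 and 6.99 and Itgax (CD11c) at 0.692 and 0.743. Ly6c2, a marker of inflammatory monocytes, stood at 0.820 and 0.631. The co-stimulatory genes were low, with Cd80 at 2.53 and 2.09, Cd40 at 1.07 and 0.987 and Cd86 at 0.0196 and 0.0686, the last from 4 and 18 reads. Ccr2, Mertk, Timd4 and 13 other surface genes were not analysed here.

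Uptake by Fc receptors had 17 genes with a row of 18, with a median of 27.5 FPKM at percentile 82.1. The inhibitory phosphatase gene Ptpn6 stood at 187 and 194 FPKM and the shared signalling chain Fcer1g at 154 and 135. Of the Fc gamma receptors, the high-affinity Fcgr1 stood at 24.7 and 17.7 and held 69.2% ± 5.37 of their summed level, followed by Fcgr3 (4.57 and 4.98), the inhibitory Fcgr2b (3.74 and 3.86) and Fcgr4 (0.815 and 0.555). All 4 receptor genes were thus lower than Fcer1g. Among SRC family kinases, Lyn stood at 41.1 and 40.4 and Fgr at 16.6 and 15.8, while Src itself stood at 0.0452 and 0.0766 from 11 and 24 reads.

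The start regions of these uptake genes were searched for a short sequence. PU.1 and other ETS factors bind purine-rich sites around GGAA, and AGGAAG is a common form. Within 250 bases before the first RefSeq start, AGGAAG on either strand was present in 15 of 27 macrophage surface genes (55.6%) and 8 of 14 Fc receptor genes (57.1%) with a promoter entry, against 2335 of 8317 genes of the table (28.1%). It was also in 13 of 31 lysosomal glycosidase, lipase and sulfatase genes (41.9%), 8 of 22 Toll-like receptor and adaptor genes (36.4%) and 5 of 19 lineage transcription factors (26.3%). A match is a description of letters, not a binding site. The window of Ptpn6 is shown because it is the most abundant Fc gene with a match, from RefSeq on GRCm38.p6, chr6:124738715-124738959, minus strand, 5′ to 3′, with AGGAAG or its reverse complement CTTCCT in capitals and 5 bases that GENCODE counts as exon left off.
Ptpn6: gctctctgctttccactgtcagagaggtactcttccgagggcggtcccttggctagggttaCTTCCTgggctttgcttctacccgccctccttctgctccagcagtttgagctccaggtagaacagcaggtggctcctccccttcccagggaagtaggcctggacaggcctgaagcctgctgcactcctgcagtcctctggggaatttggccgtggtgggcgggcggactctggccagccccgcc

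Scavenger receptors and lectins had 17 genes with a row of 29, and 11 of them reached 10 FPKM, against 45.4% of all genes. The galectin genes Lgals3 (311 and 250 FPKM) and Lgals1 (267 and 186) led. Lrp1, a large endocytic receptor, stood at 43.1 and 49.6, and Msr1, the class A scavenger receptor, at 8.61 and 9.24. Clec7a, the beta-glucan receptor dectin 1, stood at 0.933 and 0.862. Cd36, a receptor of fatty acids and modified lipoproteins and the target of the antibodies used in the series, stood at 0.0400 and 0.117 FPKM, from 8 and 30 reads, rank 10627 of 10639. It lay above the floor of 3 reads in both libraries, and replicate 2 was 2.91 times replicate 1. Marco, Cd163, Mrc1 and Olr1 were not analysed here.

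Of the Toll-like receptors, 8 had a row, and in 6 of 7 neighbouring pairs the ranges over the libraries did not overlap. Tlr2, the receptor for bacterial lipoproteins, led at 56.0 and 54.2 FPKM and held 51.7% ± 3.61 of the summed level of the family. Tlr7, which senses single-stranded RNA in endosomes, followed at 18.0 and 23.8, and Tlr13, a mouse sensor of bacterial ribosomal RNA, at 8.69 and 9.68. Tlr4, the receptor for lipopolysaccharide, stood at 7.18 and 8.67, near the median of all genes. Tlr6 stood at 4.77 and 4.84, Tlr9 at 3.77 and 4.39, Tlr1 at 3.96 and 3.86 and the double-stranded RNA sensor Tlr3 at 0.835 and 0.854. The ranges of Tlr9 and Tlr1 overlapped, and those of Tlr13 and Tlr4 nearly met, at 8.69 and 8.67 FPKM. Tlr5, Tlr8, Tlr11 and Tlr12 were not analysed here.

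Genes that serve these receptors were often more abundant than the receptors. Cd14 stood at 534 and 460 FPKM against a Tlr4 of under 10. Ly96, the MD-2 protein that completes the lipopolysaccharide receptor, stood at 2.64 and 1.79 and was the second lowest of the 28 genes of the list. Unc93b1, which carries nucleic acid sensors to endosomes, stood at 105 and 104, and the receptor chaperone Hsp90b1 at 158 and 207. The adaptor Myd88 stood at 25.8 and 25.9, and Ticam1, the other main adaptor, at 13.0 and 14.8. The negative regulator Irak3 stood at 4.26 and 4.30.

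Cytosolic sensors were near the middle of the table, with a median of 8.20 FPKM over 25 genes at percentile 48.3. Ninj1, which ruptures the membrane of dying cells, led at 53.5 and 50.2 FPKM, followed by the pore protein gene Gsdmd (38.1 and 31.6). Aim2, a sensor of cytosolic DNA, stood at 17.6 and 24.9, and Nlrp3 at 18.7 and 18.0. Casp1, the protease that these sensors activate, stood at 4.61 and 5.38 and Nlrc4 at 0.919 and 1.07. Pycard, the adaptor between sensors and Casp1, was not analysed here.

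Lysosomal genes were 114 with a row of 125 listed, of which 80 reached 10 FPKM and 17 reached 100, against 45.4% and 3.92% of all genes. Together they held 3.32% of the summed FPKM in replicate 1 and 3.06% in replicate 2. Proteases and their inhibitors had the highest median of the 4 lists, 42.8 FPKM (percentile 89.3), followed by the proton pump at 32.2 (85.1), glycosidases, lipases and sulfatases at 21.02 (76.3) and membrane and traffic genes at 12.3 (61.0).

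Lyz2 made up 92.4% of the summed level of both lysozyme genes in either library, with 2729 and 2177 FPKM against 223 and 178 for its neighbour Lyz1. The transcripts of these related genes were not compared here, and the split of reads between them is uncertain. Alignment of their start regions, windows of 250 bases, gave 205 identical positions, 35 mismatches and 20 gap positions. They are shown from RefSeq on GRCm38.p6, minus strand, at chr10:117282322-117282522 for Lyz2, with 49 bases that GENCODE counts as exon left off, and chr10:117292869-117293118 for Lyz1. Capitals mark AGGAAG or CTTCCT, of which Lyz2 had 2 matches and Lyz1 had 1.
Lyz2: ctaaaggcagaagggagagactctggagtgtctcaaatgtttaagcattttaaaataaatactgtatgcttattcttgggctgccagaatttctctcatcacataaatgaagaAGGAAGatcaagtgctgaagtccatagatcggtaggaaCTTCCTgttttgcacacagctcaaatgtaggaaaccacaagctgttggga
Lyz1: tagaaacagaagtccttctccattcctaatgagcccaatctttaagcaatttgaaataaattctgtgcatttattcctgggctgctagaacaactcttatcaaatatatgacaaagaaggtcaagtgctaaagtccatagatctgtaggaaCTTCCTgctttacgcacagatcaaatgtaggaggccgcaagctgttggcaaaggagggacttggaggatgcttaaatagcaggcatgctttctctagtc

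Of the cathepsins, Ctsz stood at 393 and 365 FPKM and held 29.5% ± 0.610 of the summed level of 11 genes. Ctss, a cysteine protease of antigen processing, followed at 277 and 236, Ctsb at 256 and 225, the serine carboxypeptidase Ctsa at 181 and 186 and the aspartic protease Ctsd at 154 and 130. Ctsl stood at 49.1 and 40.4 and Ctso at 2.05 and 2.25. The cystatins Cst3 (978 and 721) and Cstb (196 and 135), which inhibit the cysteine cathepsins, stood beside them. Legumain, encoded by Lgmn, stood at 187 and 199. Ctsk, the protease of osteoclasts, was not analysed here.

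Among other hydrolases, Psap, the precursor of the saposins, stood at 277 and 261 FPKM, the hexosaminidase gene Hexa at 118 and 104 and Gusb, beta-glucuronidase, at 93.8 and 90.6. At the low end Galc stood at 2.23 and 2.32, and Acp5, the tartrate-resistant phosphatase of osteoclasts, at 0.381 and 0.364. In the membrane, Lamp1 stood at 358 and 338, against 25.9 and 26.8 for Lamp2. Laptm5, a lysosomal protein of blood cells, stood at 288 and 300 and Grn, progranulin, at 183 and 183. The iron transporter Slc11a1, linked to resistance to intracellular bacteria, stood at 8.34 and 7.93. Of the proton pump, Atp6v1g1 led at 124 and 97.3, and Tcirg1 held 61.2% ± 1.91 of the summed level of the a subunits at 36.5 and 37.0.

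Lysosomal genes are known for CLEAR elements, sites of TFEB, TFE3 and MITF built around CACGTG. This sequence was searched after the promoter of Lamp1 had been read. It was present in the 250 bases before the start in 20 of 89 lysosomal genes (22.5%) with a promoter entry, against 740 of 8317 genes (8.90%). By list it was in 4 of 15 protease genes, 7 of 31 glycosidase, lipase and sulfatase genes, 7 of 29 membrane and traffic genes and 2 of 14 pump genes. Of the other lists searched, cholesterol synthesis had 3 of 19 (15.8%), glycolysis 4 of 27 (14.8%), shares close to the 14.3% of the pump genes, and the macrophage surface genes 0 of 27. CACGTG reads the same on both strands and overlapped AGGAAG or CCAAT in 0 promoters. The windows of Lamp1 (4 matches) and of the transporter gene Mfsd1 (5 matches, 77.9 and 70.4 FPKM) are shown because they carry several copies. For Mfsd1, 3 of the matches lie in the printed bases, after 27 bases that GENCODE counts as exon were left off. Both are on the plus strand of GRCm38.p6 from RefSeq, at chr8:13158911-13159160 and chr3:67582518-67582740, with CACGTG in capitals.
Lamp1: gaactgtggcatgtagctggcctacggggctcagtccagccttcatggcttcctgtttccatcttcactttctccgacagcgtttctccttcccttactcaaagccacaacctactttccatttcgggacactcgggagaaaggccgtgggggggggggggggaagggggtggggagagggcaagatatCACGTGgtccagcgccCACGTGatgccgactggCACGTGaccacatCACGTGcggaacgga
Mfsd1: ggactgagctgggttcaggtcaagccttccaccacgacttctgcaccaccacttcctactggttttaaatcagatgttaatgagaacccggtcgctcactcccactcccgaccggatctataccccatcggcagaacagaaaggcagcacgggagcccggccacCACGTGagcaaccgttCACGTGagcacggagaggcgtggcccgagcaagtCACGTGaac

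Glycolysis was among the most abundant pathways. Its 28 genes with a row of 32 all reached 1 FPKM, 24 reached 10, 11 reached 100 and 3 reached 1000. Over all genes these shares were 93.4%, 45.4%, 3.92% and 0.244%. The list median of 67.1 FPKM lay at percentile 93.5. The 28 genes held 3.16% of the summed FPKM in replicate 1 and 2.97% in replicate 2. Levels were higher late in the pathway than early. The glucose transporter gene Slc2a1 stood at 106 and 109 FPKM and held 68.2% ± 1.71 of the transporters' summed level. The hexokinase genes stood at 66.5 and 71.8 for Hk1, 51.1 and 54.9 for Hk2 and 22.0 and 19.8 for Hk3, and the phosphofructokinase genes at 74.3 and 67.3 for Pfkl, 63.0 and 67.1 for Pfkp and 17.5 and 15.3 for Pfkm. These early steps were shared by several isozymes.

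From aldolase on, 1 gene held most of the summed level where isozymes were compared, at the aldolase, mutase and enolase steps. No second gene was compared at the other steps. Aldoa stood at 1033 and 927 FPKM (94.0% of the aldolases), Tpi1 at 783 and 683, Pgk1 at 1186 and 924, Pgam1 at 901 and 842 (99.6% of the mutases), Eno1 at 823 and 705 (95.0% of the enolases), Pkm at 1701 and 1657 and Ldha at 1379 and 1233. Gapdh stood lower than its neighbours in the pathway at 435 and 360, and it has many near-identical pseudogenes. Lactate leaves the cell through the products of Slc16a3 (131 and 114) and Slc16a1 (83.9 and 71.1). Pfkfb3, which sets the level of the activator of phosphofructokinase, stood at 17.3 and 18.3. Pklr and Ldhb were not analysed here.

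**Figure D3:**
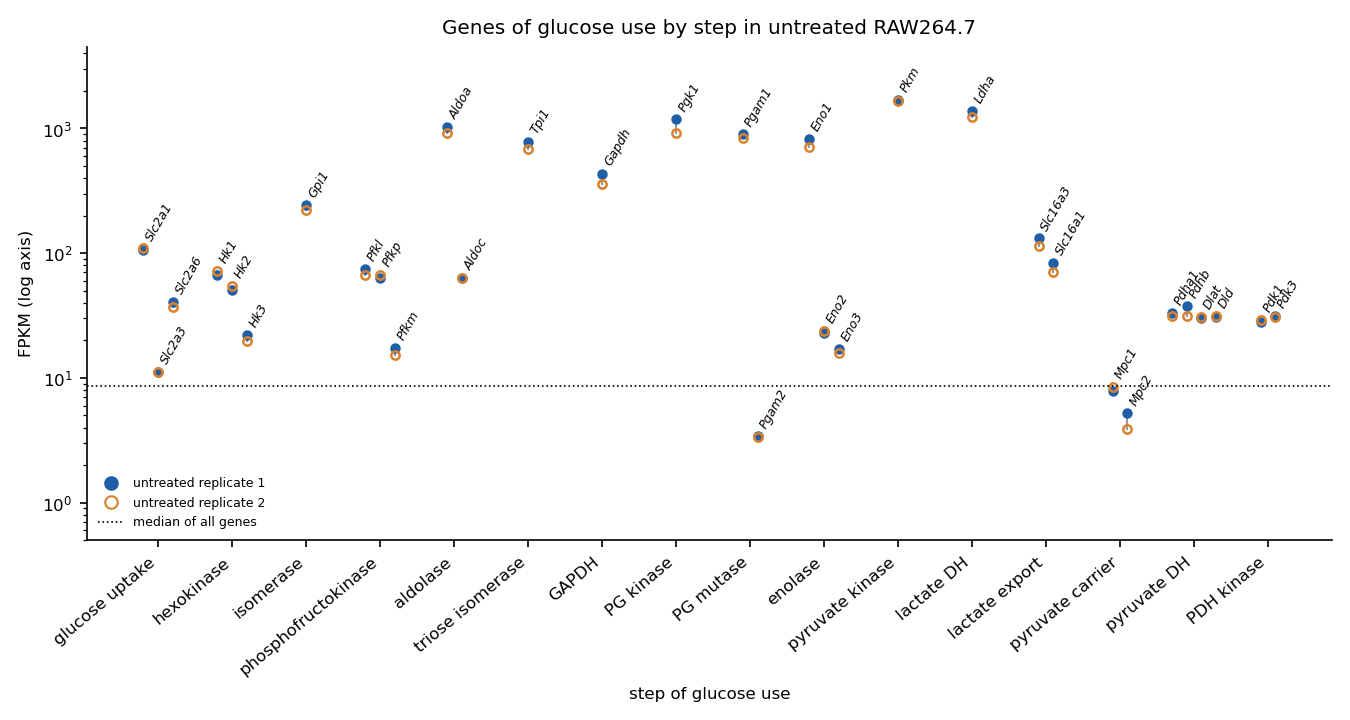
FPKM (log axis) of genes of glucose use by step in untreated replicate 1 (filled) and replicate 2 (open), with the median of all genes dotted. Aldoa, Tpi1, Pgk1, Pgam1, Eno1, Pkm and Ldha lie between 683 and 1701 FPKM, the hexokinase and phosphofructokinase genes (Hk1, Hk2, Hk3, Pfkl, Pfkp and Pfkm) between 15.3 and 74.3, and the pyruvate carrier genes Mpc1 and Mpc2 under the dotted line.

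The pentose phosphate pathway had a median of 68.4 FPKM, with 4 enzymes at one level: Tkt at 111 and 106, Pgd at 111 and 102, G6pdx at 106 and 104 and Taldo1 at 120 and 88.6. Entry of pyruvate to mitochondria was lower. The carrier genes Mpc1 and Mpc2 stood at 7.91 and 8.51 and at 5.24 and 3.87 FPKM, and the dehydrogenase genes Pdha1 and Pdhb at 32.9 and 31.2 and at 37.5 and 31.4. The kinases that switch the dehydrogenase off stood at the same level, Pdk1 at 28.3 and 29.4 and Pdk3 at 31.4 and 30.6. The 35 genes of the dehydrogenase and the TCA cycle had a median of 35.0 FPKM, led by Sdhd (198 and 159), Mdh2 (147 and 129) and Acly, which makes cytosolic acetyl-CoA from citrate (121 and 127). Pcx, pyruvate carboxylase, stood at 6.32 and 5.79.

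The respiratory chain had 73 nuclear genes with a row of 74, at a median of 46.1 FPKM. Of these, 65 reached 10 FPKM, against 45.4% of all genes. The main subunits of ATP synthase, Atp5b (510 and 444) and Atp5a1 (481 and 438), led. Cox6a2, the heart and muscle form of a cytochrome oxidase subunit, stood at 0.845 and 1.03 against 355 and 273 for the common form Cox6a1. The list's median was 53.5 FPKM in replicate 1 and 39.8 in replicate 2. The mitochondrially encoded partners differed in the other direction, with COX1 at 6862 and 8980, ND1 at 1701 and 2319 and CYTB at 1621 and 2148. The list medians for these 13 genes were 468 and 707 FPKM.

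Lipid synthesis was well represented. The 19 genes of fatty acid synthesis with a row had a median of 38.2 FPKM (percentile 87.9) against 14.5 for 24 genes of fatty acid oxidation (66.2). Scd2, a desaturase that makes oleate, stood at 491 and 494 FPKM, against 92.4 and 101 for Scd1. It held 82.9% ± 0.922 of the summed level of the 3 stearoyl-CoA desaturase genes, which leave out the Fads genes. Fads2 stood at 165 and 167, Fads1 at 72.5 and 72.4 and Fasn, the fatty acid synthase, at 62.6 and 66.5. Of oxidation, Acadl led at 64.3 and 60.9, while Cpt1a, the gate for entry to mitochondria, stood at 5.73 and 5.63.

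Cholesterol synthesis had 26 genes with a row of 28, all at or above 1 FPKM and 23 at or above 10. Over all genes these shares were 93.4% and 45.4%. The list median was 28.4 FPKM. Fdps stood at 145 and 114 FPKM, the sterol-regulated factor gene Srebf2 at 76.2 and 80.0, and Mvd at 65.4 and 60.1. Of the genes of export, the transporter gene Abca1 stood at 0.901 and 1.01, Apoe at 2.34 and 3.30 and the transporter gene Abcg1, above the median of all genes, at 18.2 and 17.9. CCAAT, the core of NF-Y sites, was present in the start regions of 16 of 19 cholesterol genes (84.2%) against 3088 of 8317 genes (37.1%). The GC box letters GGGCGG were present in 16 of 19 as well, against 5093 of 8317 (61.2%), and the matches of CCAAT and GGGCGG overlapped in 45 promoters of the table. The window of Mvd is shown because it holds CCAAT on both strands, from RefSeq on GRCm38.p6, chr8:122443423-122443672, minus strand, with CCAAT or ATTGG in capitals.
Mvd: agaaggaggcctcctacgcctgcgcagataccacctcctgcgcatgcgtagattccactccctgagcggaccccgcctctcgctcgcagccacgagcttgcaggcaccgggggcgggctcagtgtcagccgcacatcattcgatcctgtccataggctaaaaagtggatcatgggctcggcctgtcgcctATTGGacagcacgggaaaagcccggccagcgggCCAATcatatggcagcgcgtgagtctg

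Among metals, both ferritin genes were abundant, Fth1 at 1255 and 1167 FPKM and Ftl1 at 431 and 338. Hmox1, which releases iron from haem, stood at 112 and 121, while Slc40a1, the exporter ferroportin, stood at 0.429 and 0.400. Mt1, a metallothionein, stood at 115 and 105 against 0.306 and 0.0474 for Mt2. Storage genes thus stood far above the export gene. The NADPH oxidase of phagocytes was represented by Cyba (225 and 152), Cybb (170 and 188), Ncf1 (150 and 159) and Ncf4 (57.6 and 49.0), with the GTPase gene Rac2 at 267 and 275. Of the antioxidant genes, Txn1 stood at 333 and 250 and Prdx1 at 224 and 191, while Gpx1 stood at 2.37 and 1.35 against 114 and 81.8 for Gpx4.

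Genes of serine, polyamine and one-carbon metabolism stood at a median of 34.8 FPKM, with Odc1, the first enzyme of polyamine synthesis, at 237 and 223, Shmt2 at 199 and 200, Phgdh at 190 and 151 and Psat1 at 154 and 139. Of arginine use, Nos2, the inducible nitric oxide synthase, stood at 28.2 and 31.6 FPKM, rank 1729. Ass1, which remakes arginine from citrulline, stood at 0.350 and 0.324 and Arg2, an arginase, at 0.340 and 0.254. Arg1 was not analysed here.

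**Figure D4:**
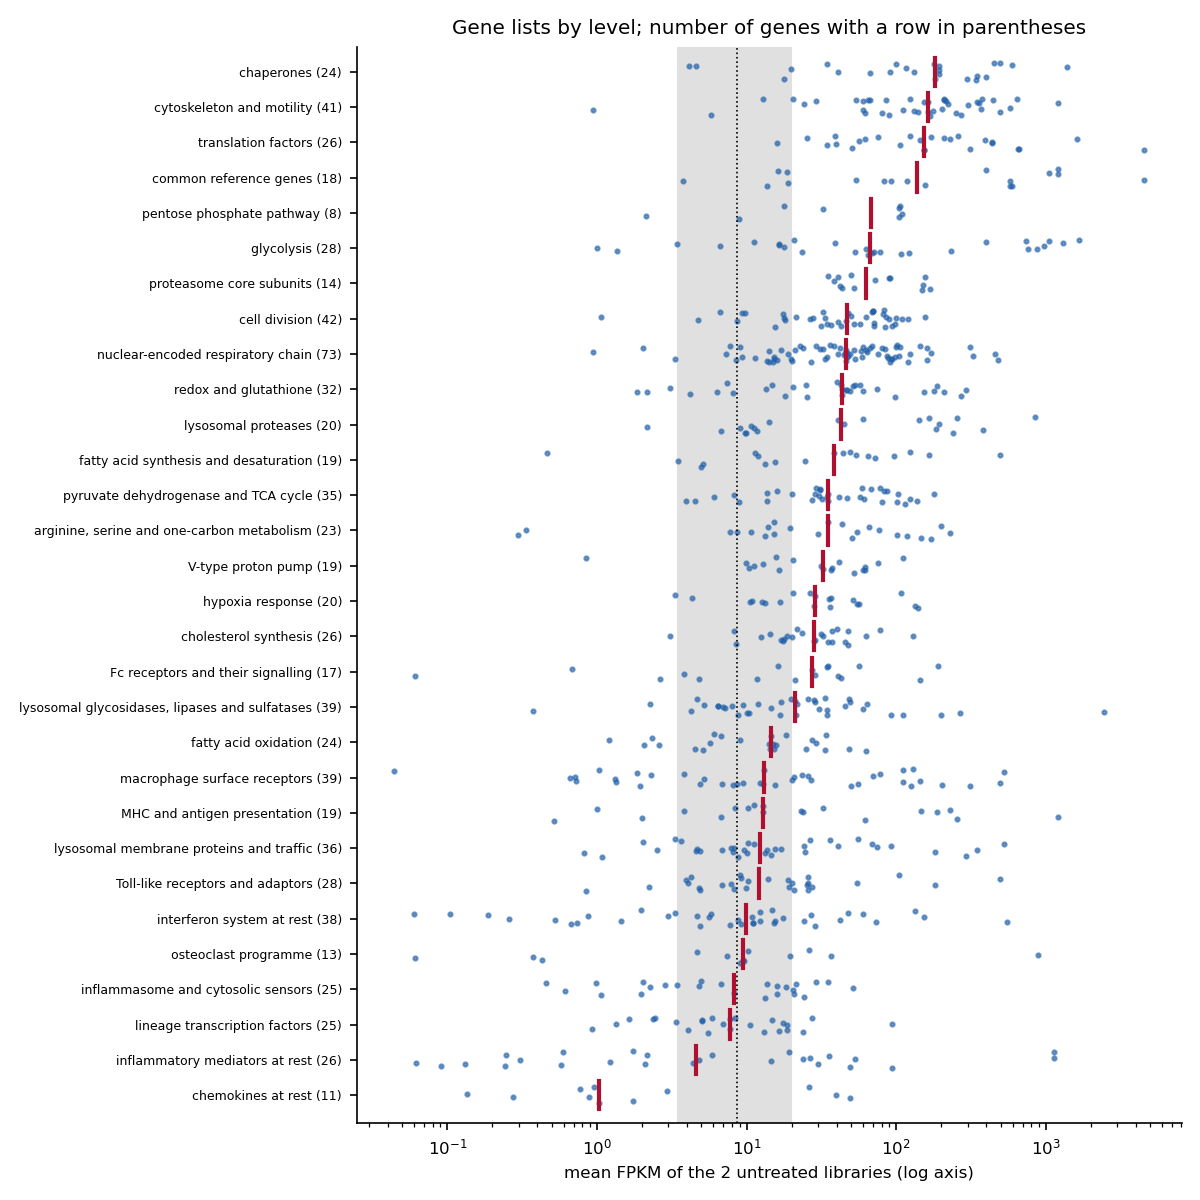
Mean FPKM (log axis) of each gene (points) in 30 gene lists ordered by their median (red bar), with the median of all genes dotted and their middle 50% shaded. Medians run from 181 FPKM for chaperones to 1.03 for chemokines, with glycolysis at 67.1, cell division at 47.1 and lineage transcription factors at 7.70.

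Growth genes were abundant. All 42 genes of the cell division list had a row at or above 1 FPKM and 36 reached 10. Over all genes these shares were 93.4% and 45.4%. The list median of 47.1 FPKM lay at percentile 90.3. Cdk4, the kinase of early G1, stood at 161 and 153 FPKM, the helicase genes Mcm3 and Mcm5 at 123 and 116 and at 113 and 104, and the mitotic cyclin gene Ccnb2 at 105 and 95.0. Of the D cyclins, Ccnd1 stood at 99.4 and 98.0 and held 84.0% ± 0.181 of their summed level, against 17.7 and 17.9 for Ccnd3 and 1.10 and 1.03 for Ccnd2. The share of the summed FPKM held by the list was 0.754% and 0.783%.

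CCAAT was present in the start regions of 25 of 33 cell division genes (75.8%) with a promoter entry, and of 0 of 14 Fc receptor genes, against 37.1% of the table. The windows of Mcm3 and Ccnb2 are shown because each holds 3 matches, from RefSeq on GRCm38.p6, both on the minus strand, at chr1:20820313-20820562 and chr9:70421555-70421804, with CCAAT or ATTGG in capitals.
Mcm3: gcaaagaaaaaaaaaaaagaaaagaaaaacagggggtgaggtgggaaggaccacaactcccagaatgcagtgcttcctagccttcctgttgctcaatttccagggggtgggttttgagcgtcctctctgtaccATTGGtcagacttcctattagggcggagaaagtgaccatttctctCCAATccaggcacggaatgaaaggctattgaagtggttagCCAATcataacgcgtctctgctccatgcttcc
Ccnb2: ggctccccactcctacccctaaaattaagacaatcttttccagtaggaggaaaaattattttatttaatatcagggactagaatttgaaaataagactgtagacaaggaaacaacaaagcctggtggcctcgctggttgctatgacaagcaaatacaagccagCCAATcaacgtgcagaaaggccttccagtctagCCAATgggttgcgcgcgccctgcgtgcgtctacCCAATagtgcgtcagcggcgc

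Of the MYC family, which drives growth and ribosome synthesis, Mycn stood at 407 and 390 FPKM, rank 80, from 74604 and 92162 reads. Myc stood at 0.132 and 0.0719 FPKM, rank 10620, from 20 and 14 reads. Of these family members Mycn was thus the abundant one, and Mycl was not analysed here. Abl1, the cellular gene whose viral form is carried by the Abelson virus, stood at 10.0 and 11.2 FPKM, and its relative Abl2 at 12.2 and 12.7. A read of the viral oncogene that matches Abl1 would be counted with it, and the files do not separate them.

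Other genes of growth control with high levels were Mcl1, which blocks apoptosis (172 and 181 FPKM), Akt1 (91.7 and 88.6), the cell cycle inhibitor gene Cdkn1a (80.3 and 85.5), Trp53 (71.6 and 70.5) and Bax (74.0 and 54.1). Bcl2 stood at 1.99 and 2.50 and Bcl2a1b at 1.47 and 0.956. Akt1 held 84.4% ± 0.278 of the AKT pair measured. Cdkn1c, Cdkn2a and Cdkn2b were not analysed here.

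Inflammatory mediators spanned the whole table, with a median of 4.63 FPKM over 26 genes and 8 of them under 1 FPKM, against 6.6% of all genes. Mif and Spp1 were above 1000 FPKM. Gpnmb, a glycoprotein of lipid-laden macrophages, stood at 96.8 and 90.0, Tnf at 50.8 and 55.0, Tgfb1 at 45.9 and 51.7 and Acod1, which makes itaconate, at 19.0 and 19.4. In contrast Il1b stood at 0.188 and 0.307, Il1a at 0.0182 and 0.106 and Lcn2 at 0.0959 and 0.0851. Il1a came from 2 and 15 reads, the first under the floor of 3. Il6, Il10, Il12b, Ifnb1 and 6 other mediators were not analysed here.

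Chemokines had the lowest median of the 30 lists plotted, 1.03 FPKM over 11 genes of 23, at percentile 6.92. Those above 10 FPKM in both libraries were Ccl9 (52.3 and 46.6), Ccl3 (40.1 and 39.7) and Ccl4 (31.3 and 20.8). The T cell attractant gene Ccl5 stood at 1.74 and 1.76, Cxcl10 at 0.949 and 0.811, Cxcl2 at 0.634 and 0.917 and Cxcl11 at 0.199 and 0.0735. Ccl2 and 11 others were not analysed here.

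The interferon list had 38 genes, all with a row, and a median of 9.98 FPKM. Levels ranged from Ifitm3 at 632 and 461 FPKM, Bst2 at 191 and 118 and Ifi27l2a at 168 and 101 to Mx1 at 0.165 and 0.207, Gbp3 at 0.0660 and 0.141 and Gbp2 at 0.0428 and 0.0776. Of the factors, Irf5 stood at 48.0 and 47.4 and held 38.6% of the summed level of 8 interferon regulatory factors, Irf7 at 24.6 and 24.1 and Irf1 at 3.29 and 2.70. Stat6, which answers to interleukin 4, held 57.8% of 6 STAT genes at 59.6 and 61.2 FPKM.

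Levels of antigen presentation genes were uneven. B2m stood at 1223 and 1177 FPKM, against 158 and 135 for the class I heavy chain H2-D1 and 34.5 and 30.1 for H2-K1. Cd74, the invariant chain of class II molecules, stood at 232 and 226, whereas the class II chain H2-Eb1 stood at 0.684 and 0.352 and H2-DMa at 2.14 and 1.86. How fully reads of H2 genes from a BALB/c line align to the reference build was not tested, so the H2 levels are uncertain. H2-Aa, H2-Ab1 and Ciita were not analysed here. The immunoproteasome genes Psmb8, Psmb9 and Psmb10 stood at 15.5 and 10.4, 9.709 and 6.996, and 27.8 and 19.7.

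RAW264.7 cells are used as osteoclast precursors. Of 21 genes of the osteoclast programme, 13 had a row and 5 reached 10 FPKM, near the 45.4% of all genes. Car2, which supplies protons for bone resorption, stood at 920 and 842 FPKM. Tnfrsf11a, the receptor RANK, stood at 9.77 and 9.20 and Nfatc1, the main factor of the programme, at 18.3 and 20.8. Dcstamp, needed for cell fusion, stood at 10.6 and 9.87. Of the other genes of acid secretion, the pump subunit gene Tcirg1 stood at 36.5 and 37.0 and the chloride transporter gene Clcn7 at 8.97 and 10.2. The protease gene Mmp9 stood at 0.503 and 0.351 and Acp5 at 0.381 and 0.364. Ctsk, Calcr, Oscar and Itgb3 were not analysed here.

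At the bottom of the ranking 702 genes (6.6%) stood under 1 FPKM and 17 (0.16%) under 0.1. The lowest were Lix1 at 0.0209 and 0.0406 FPKM, Zfp811 at 0.0303 and 0.0314, Ptprn at 0.0465 and 0.0263 and Nr4a3, an immediate early nuclear receptor, at 0.0270 and 0.0512. They rested on 4 and 10, 6 and 8, 11 and 8, and 9 and 22 reads. Of the 17 genes, Cd86, Gbp2, Gbp2b, Il1a and Lcn2 are known as genes that activated macrophages induce. Cd36, Cd79b, Lipg and Src were among the 17 as well, beside the lowest genes named above. Fscn1, the actin bundler of mature dendritic cells, stood at 0.0537 and 0.0741. At these counts the ratio between the libraries is set by few reads, and 12 of the 17 were under 0.1 FPKM in both libraries. Because every gene in the table was above 0 in all 8 libraries, the genes here are not a sample of all weak genes. Whether rows were kept for their level in a treated group was not tested. The presence of induced genes among the 17 therefore describes this table only.

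The 2 libraries differed by an SD of 0.22 on log2(FPKM + 1) over 9937 genes. Of these, 329 (3.31%) differed by over 1.5-fold and 50 (0.503%) by over 2-fold. The libraries shared 27 of their 30 most abundant rows, 88 of 100 and 945 of 1000. The difference moved with gene length. The median of replicate 2 minus replicate 1 was -0.28 for genes under 1000 bp of exon and 0.15 for those of 8000 bp or more, and Spearman's rho between exon length and the difference was 0.496 across 9698 genes with a length. Of the 83 ribosomal protein genes, 80 were lower in replicate 2, and of the 13 mitochondrially encoded genes, 12 were higher.

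Outside mitochondrial, ribosomal protein, pseudogene, predicted and small RNA rows, the 10 largest differences at a mean of at least 5 FPKM were all lower in replicate 2, by 0.80 to 0.96 on the log2 scale. They included Gchfr, a regulator of tetrahydrobiopterin synthesis (11.4 and 5.41 FPKM), the ATP synthase gene Atp5g3 (123 and 63.5) and the respiratory chain genes Uqcr11 (64.9 and 33.9), Ndufb3 (43.5 and 23.9) and Ndufb6 (58.7 and 33.2). The mitochondrially encoded ND4L (37.0 and 76.5) and ATP8 (2.99 and 7.66) differed by more and were higher in replicate 2, by 1.03 and 1.12 on the log2 scale. Levels of many short genes, among them the ribosomal proteins, Mif, Cst3 and the small respiratory chain subunits, therefore carry this spread between the libraries. Short genes were not alone in this, as the 10 largest differences included Serf2 and Snrpd2, with 5455 and 2618 bp of exon. ND4L and ATP8 had no exon length here and are not in the comparison with length. The source of the spread was not tested.

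**Figure D5:**
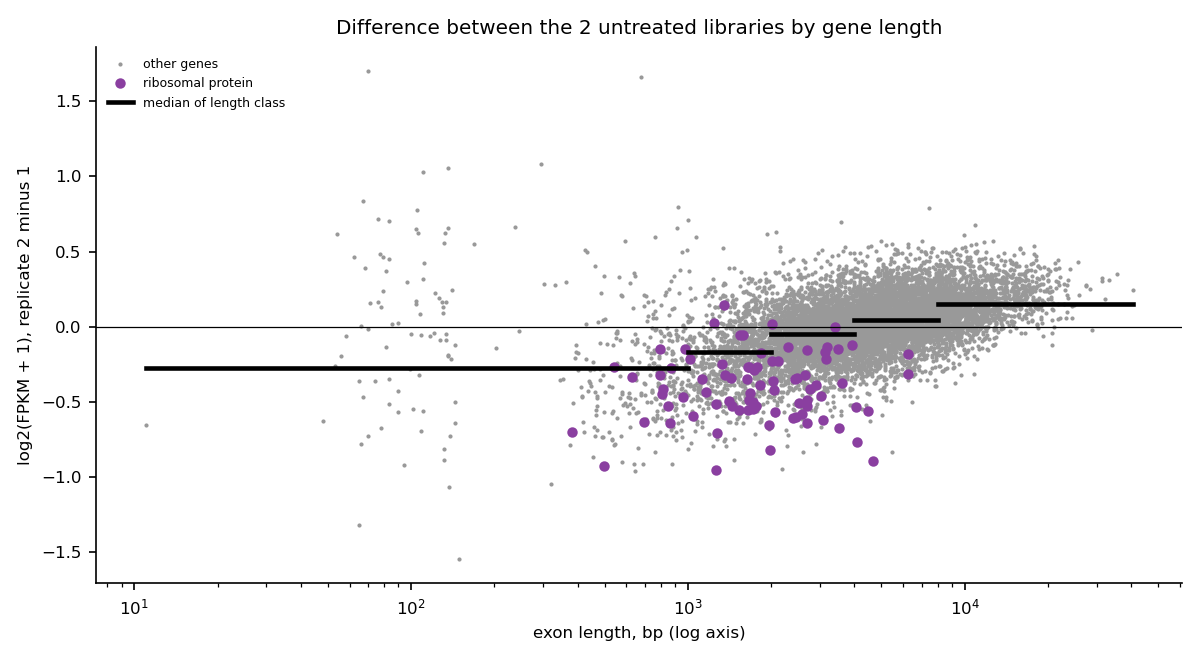
Difference of untreated replicate 2 minus replicate 1 in log2(FPKM + 1) against exon length in bp (log axis) for 9698 genes with a mean of at least 1 FPKM, with ribosomal protein genes in purple and the median of 5 length classes as black bars. The bars climb from -0.28 in the shortest class to 0.15 in the longest, and 80 of 83 ribosomal protein genes lie below 0.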

How the data were processed

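RNA sequencing was measured in 2 untreated RAW264.7 libraries. Per the labels' protocols, total RNA taken with Trizol went into a standard Illumina library. The labels also name 10x Genomics, but a library has a single value for each gene here, so the data were treated as bulk. The authors deposited FPKM values. Per the submitters' processing notes, HISAT2 2.0.5 was used, and mm10 and hg38 are named as builds. The role of hg38, counter, annotation, strand use and treatment of reads with several matches are not given in the sources used here.

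Python 3.11.15 with pandas 2.3.3, numpy 2.4.6, scipy 1.17.1, Biopython 1.88 and matplotlib 3.10.9 was used. Genes were ranked by the mean FPKM of both libraries. With 2 libraries of 1 group, no test was made, and levels were called apart where the ranges of the libraries did not overlap. The spread was taken on log2(FPKM + 1) at a mean of at least 1 FPKM. Depth was recovered from the steps of single reads in 109 RNAs under 200 bp, of which 108 and 109 came out whole within 0.02. In longer genes of under 100 reads, 369 of 439 and 315 of 373 did. Read numbers of genes follow from this depth and GENCODE M21 exon lengths (GRCm38, the assembly of mm10), matched by symbol for 10366 genes. The recovery was checked on simulated data. Promoters came from RefSeq, by symbol, for 8317 genes, with the first listed start. Exon bases were left out of printed windows but not of the counts of matches.

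The 48 gene lists and the genes described were chosen with earlier results of these data known. The rule names the 30 highest and 10 lowest genes outside mitochondrial, ribosomal protein, pseudogene, predicted and small RNA rows, 6 highest and 3 lowest members of each list, any member of the lineage factor, growth factor receptor, surface and Toll-like receptor lists, 10 largest differences between the libraries, and Cd36, Tlr4, Abl1, Pycard, Nos2 and Ighm. Members of 28 gene families and other genes named outside this rule were chosen after their values were seen. A few genes covered by this rule do not appear in the text. The alternatives tried were each library alone, rescaling each table to 1000000, a geometric mean, leaving out mitochondrial genes, a minimum level, and other pseudocounts.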

Additional observations from a re-analysis of the deposited data

How the results depend on the processing

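Scaling each library's table to 1000000 raised the number at or above 10 from 4834 to 8400, at or above 100 from 417 to 1825 and at or above 1000 from 26 to 131, and left 0 under 0.1, since the table sums to less than that. With mitochondrially encoded genes also left out these counts were 8486, 1925, 131 and 0, and the shares of the 10 and 100 most abundant genes were 7.96% and 27.6%. With a minimum of 1 FPKM in both libraries 0 genes were under 0.1, by construction. From each library alone, the share of the 100 most abundant genes was 30.9% and 30.7%, and the counts ranged over 9892 to 9923 at or above 1 FPKM, 4825 to 4843 at or above 10, 397 to 437 at or above 100, 21 to 28 at or above 1000 and 20 to 22 under 0.1. With a geometric mean, 44 of 46 list median percentiles and 361 of 371 ranks of named genes moved by no more than the spread between the libraries. From replicate 1 alone 34 of 46 and 320 of 371 did, from replicate 2 alone 36 of 46 and 325 of 371, and without mitochondrial genes 41 of 45 and 279 of 362. For each library alone and the geometric mean these counts are largely set by construction. The spread comes from the same 2 libraries, between which their mean lies, so the counts do not measure robustness. Among single-library values the list that shifted most was antigen presentation, from percentile 62.8 to 68.0 in replicate 1. The minimum of 1 FPKM took the chemokine list from 6.92 to 79.3, because its low members were left out. The SD of the difference between the libraries ranged from 0.16 with a pseudocount of 5 to 0.26 with 0.1, beside 0.22. No paired analysis was possible because the values come from no test and 1 group of 2 libraries. Depth limits genes under 0.1 FPKM, which rest on few reads.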

Other observations

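The lists of translation factors, chaperones and core proteasome genes stood high. The 26 translation factors were all at or above 10 FPKM, against 45.4% of all genes, with a median of 153 FPKM. The 24 chaperones had a median of 181. Hspa8, the constitutive heat shock cognate, stood at 449 and 455 FPKM, the endoplasmic chaperone gene Hspa5 at 356 and 340, and the inducible Hspa1b at 4.11 and 4.10. The 14 core proteasome genes lay between 34.9 (Psmb7) and 169 FPKM (Psmb4). The 18 genes of the unfolded protein and integrated stress response had a median of 14.005 FPKM, at percentile 64.2. Atf4 stood at 123 and 107 and Xbp1 at 92.7 and 84.0, while Ddit3, a late stress factor, stood at 5.18 and 5.35. Of 20 hypoxia response genes, 18 reached 10 FPKM, against 45.4% of all genes, led by Ero1a (128 and 151), Bnip3 (133 and 135) and Slc2a1 (106 and 109). The 25 immediate early genes had a median of 8.91 FPKM, at percentile 51.0. Of these, Ier3 stood at 275 and 243 and Junb at 66.7 and 66.5, whereas Fos stood at 2.60 and 2.33 and Egr2 at 0.909 and 0.747. In the cytoskeleton list 26 of 41 genes reached 100 FPKM, against 3.92% of all genes, with Actb at 1160 and 1266 against 256 and 243 for the other cytoplasmic actin gene Actg1.

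Genes often used as references spread widely. Over 18 such genes levels ranged from 4569 FPKM for Eef1a1 to 3.73 for Tbp, with Hprt at 156. Rps18 stood at 23.1 and 14.9 FPKM while its pseudogene Rps18-ps3 stood at 633 and 347, and Rpl3 stood at 236 and 215 while Rpl3-ps1 stood at 1043 and 877. Rps2 stood at 75.9 and 57.8 against 92.8 and 72.1 for Rps2-ps13, and Rps10 at 2.39 and 2.08 against 6.21 and 3.32 for Rps10-ps1. In contrast Rpl7a stood at 953 and 790 against 1.53 and 1.49 for Rpl7a-ps3. The split of reads between parent and copy was not tested. Of the short RNAs, Mir5125 stood highest at 26.8 and 37.4 FPKM. These genes were chosen after their values were seen.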
